A study of Rattus norvegicus with 32 samples.

Results

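Transcripts of 8 inflammatory chemokine genes were followed in the rat hippocampus, out of 23822 genes measured. The genes are Ccl2, Ccl7, Ccl12, Ccl3 and Ccl20, whose proteins carry 2 adjacent cysteines (CC chemokines), and Cxcl1, Cxcl10 and Cxcl13, in which another residue separates them (CXC chemokines). They were taken as a named set of chemokines raised in a rat model of Alexander disease, so that they were increased at all is not a finding here, and their levels, their order and their course with age are what is described. The R237H rats carry one mutant copy of Gfap, the gene of the astrocyte intermediate filament protein, and are labelled Gfap+/R237H on the outbred Sprague Dawley background Crl:CD(SD). Their WT littermates have the same background. Hippocampus (with the dentate gyrus and subiculum) was taken at P21 and P56 (postnatal days 21 and 56) from different animals, and an effect of age cannot be told apart from one of the collection. At P56 each sex gave 4 R237H and 4 WT rats. At P21 there were 4 males of either genotype, while the females numbered 5 R237H and 3 WT, which makes 32 rats in all. As the tissue is bulk, more RNA per cell and more cells that make it cannot be told apart.

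Chemokines are small secreted proteins that bind receptors coupled to G proteins and steer the movement of leukocytes and glia. CCL2, CCL7 and CCL12 act on CCR2 of monocytes, CCL3 on CCR1 of macrophages, CCL20 on CCR6 of lymphocytes and dendritic cells, CXCL1 on CXCR2 of neutrophils, CXCL10 on CXCR3 of activated T cells, and CXCL13 on CXCR5 of B cells. In the brain, astrocytes, microglia and endothelium can make several of them after injury, and their genes are classic targets of NF-κB, of STAT proteins and of interferon signaling.

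The sequences in front of the start sites are shown because regulators of this kind can bind in such stretches. Whether the sequences relate to the course of the genes with age was not tested. RefSeq promoter entries were matched for 6 of the 8 genes (Ccl7, Ccl12, Ccl20, Cxcl1, Cxcl10 and Cxcl13). For 4 of them, the 250 bases that end just before the start site are printed 5′ to 3′ on the gene's strand, with matches to any of the 5 motifs named after them in capitals.
Cxcl1 (GRCr8 chr14:17479322-17479571, - strand): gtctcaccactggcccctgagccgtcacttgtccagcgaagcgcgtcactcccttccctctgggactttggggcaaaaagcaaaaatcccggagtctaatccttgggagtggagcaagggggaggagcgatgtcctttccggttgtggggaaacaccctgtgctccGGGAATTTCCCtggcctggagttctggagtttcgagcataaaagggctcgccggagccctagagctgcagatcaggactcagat
Ccl20 (GRCr8 chr9:91836909-91837158, + strand): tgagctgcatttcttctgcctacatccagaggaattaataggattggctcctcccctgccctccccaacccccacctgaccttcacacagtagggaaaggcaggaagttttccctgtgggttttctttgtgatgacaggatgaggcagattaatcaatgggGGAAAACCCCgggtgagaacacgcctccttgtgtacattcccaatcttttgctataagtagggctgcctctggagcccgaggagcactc
Cxcl10 (GRCr8 chr14:15988816-15989065, + strand): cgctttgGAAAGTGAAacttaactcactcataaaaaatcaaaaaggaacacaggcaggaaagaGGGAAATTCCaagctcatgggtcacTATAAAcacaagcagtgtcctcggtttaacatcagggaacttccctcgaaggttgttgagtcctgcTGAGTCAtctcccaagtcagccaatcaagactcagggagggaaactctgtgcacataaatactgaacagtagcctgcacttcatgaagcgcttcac
Cxcl13 (GRCr8 chr14:13917921-13918170, - strand): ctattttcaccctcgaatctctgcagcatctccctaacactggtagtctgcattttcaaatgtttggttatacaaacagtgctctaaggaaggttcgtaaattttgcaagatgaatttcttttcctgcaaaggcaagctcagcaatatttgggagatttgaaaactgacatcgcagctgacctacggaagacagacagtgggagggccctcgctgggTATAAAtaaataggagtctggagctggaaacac

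The motifs were searched on both strands of the 250 bases. The NF-κB consensus decamer was present in Cxcl1, Ccl20 and Cxcl10, and in 3.54% of all 33469 RefSeq promoters of this length. In Cxcl1 it lay at -84 to -75 from the start site, with a second match on the other strand at -83 to -74 that overlaps it. In Ccl20 it lay at -89 to -80 on the other strand, and in Cxcl10 at -187 to -178. The interferon response core GAAANNGAA (8.12% of promoters) was matched in Cxcl10 alone of the 6, at -243 to -235. The AP-1 motif TGANTCA (6.34%) was matched in Cxcl10 at -96 to -90 and in Ccl7 at -73 to -67. The STAT motif TTCNNNGAA (7.67%) was in none of the 6. The TATAAA box (12.9%) was matched in Cxcl13 at -33 to -28, in Ccl7 at -34 to -29, in Ccl12 at -41 to -36 and, farther from the start, in Cxcl10 at -162 to -157. These are matches of letters, and binding was not measured.

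Totals of expected counts were 21580397 to 55544871 per rat, and the lowest 2 belonged to R237H males, R1781H (P21) and s70-B (P56). Gfap, the mutated gene, was at 1832 to 5257 TPM in R237H rats and at 290 to 584 TPM in WT rats. TPM, RSEM's scaled transcript abundance, divides reads by transcript length, so levels of different genes can be set side by side. All 256 expected counts of the 8 genes were whole numbers within 1e-06, while 5.68% of the values over all genes were not, so none of these counts showed reads divided between similar genes. The 10 microglia markers summed to 191 to 338 TPM in WT rats, to 637 to 1059 in R237H rats at P21 and to 1416 to 2378 at P56, and 10 of them were increased in P21 males and 8 in every other comparison. The 4 border macrophage markers summed to 3.17 to 9.53 TPM in WT rats, 19.5 to 28.7 in R237H rats at P21 and 38.9 to 75.9 at P56. In each sex 4 were increased at P21 and 3 at P56. Among R237H rats the medians at P21 and P56 were higher at P56 for Mrc1 (7.96 and 27.9 TPM, females 10.2 and 23.5) and Cd68 (6.71 and 28.3, females 7.15 and 30). They were lower at P56 for Cd163 (4.72 and 4.12, females 6.27 and 4.45) and Lyve1 (2.42 and 0.64, females 2.6 and 0.48). Of 7 neutrophil and monocyte markers 2 had a symbol, Cxcr2 and Itgal. They summed to 0.36 to 0.83 TPM in WT rats, 2.86 to 6.66 in R237H rats at P21 and 9.34 to 18.2 at P56. Of 9 T-cell markers 1 had a symbol, Cd6 (0.25 to 1.18, 1.61 to 2.97 and 3.76 to 7.08 TPM). Of 7 B-cell markers 2 had a symbol, Cd22 and Btk (1.01 to 2.28, 5.94 to 9.32 and 11.2 to 18.4 TPM). Symbols come from tables that favour changed genes, so a change of the few markers with a symbol is no measure of the cells. Of 6 astrocyte markers 4 had a symbol (Gfap, Vim, Aqp4 and Slc1a2). They summed to 731 to 1154 TPM in WT rats, 2963 to 4438 in R237H rats at P21 and 4602 to 7604 at P56. In P21 males 3 were increased and 1 decreased, and in each other comparison 2 were increased and 0 decreased. Slc1a2 had the lower median in R237H rats throughout. At P21 it was 262 against 361 TPM in males and 176 against 316 in females. The P56 medians were 132 against 166 and 126 against 154 TPM. Icam1 and Vcam1, the 2 endothelial markers with a symbol (of 6), summed to 22.2 to 41.1, 56.7 to 94.5 and 94.8 to 144 TPM. Of 4 neuron markers 2 had a symbol, and at P56 they summed to 414 to 578 TPM in R237H and 624 to 826 in WT males (2 decreased) and to 457 to 574 and 639 to 779 in females (1 decreased). The 4 red blood cell markers were all decreased at P56 in both sexes, at 74 to 145 TPM in R237H and 349 to 1793 in WT rats. The part of these cells in the levels below was not tested. The 4 choroid plexus markers were above 100 TPM in 6 libraries, among them the R237H rats s70-B (783 TPM) and s70-C (1665 TPM) at P56, and where leaving out all 6 ends a call or moves a fold change by over 1.5 times, that value is given too.

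**Figure D1:**
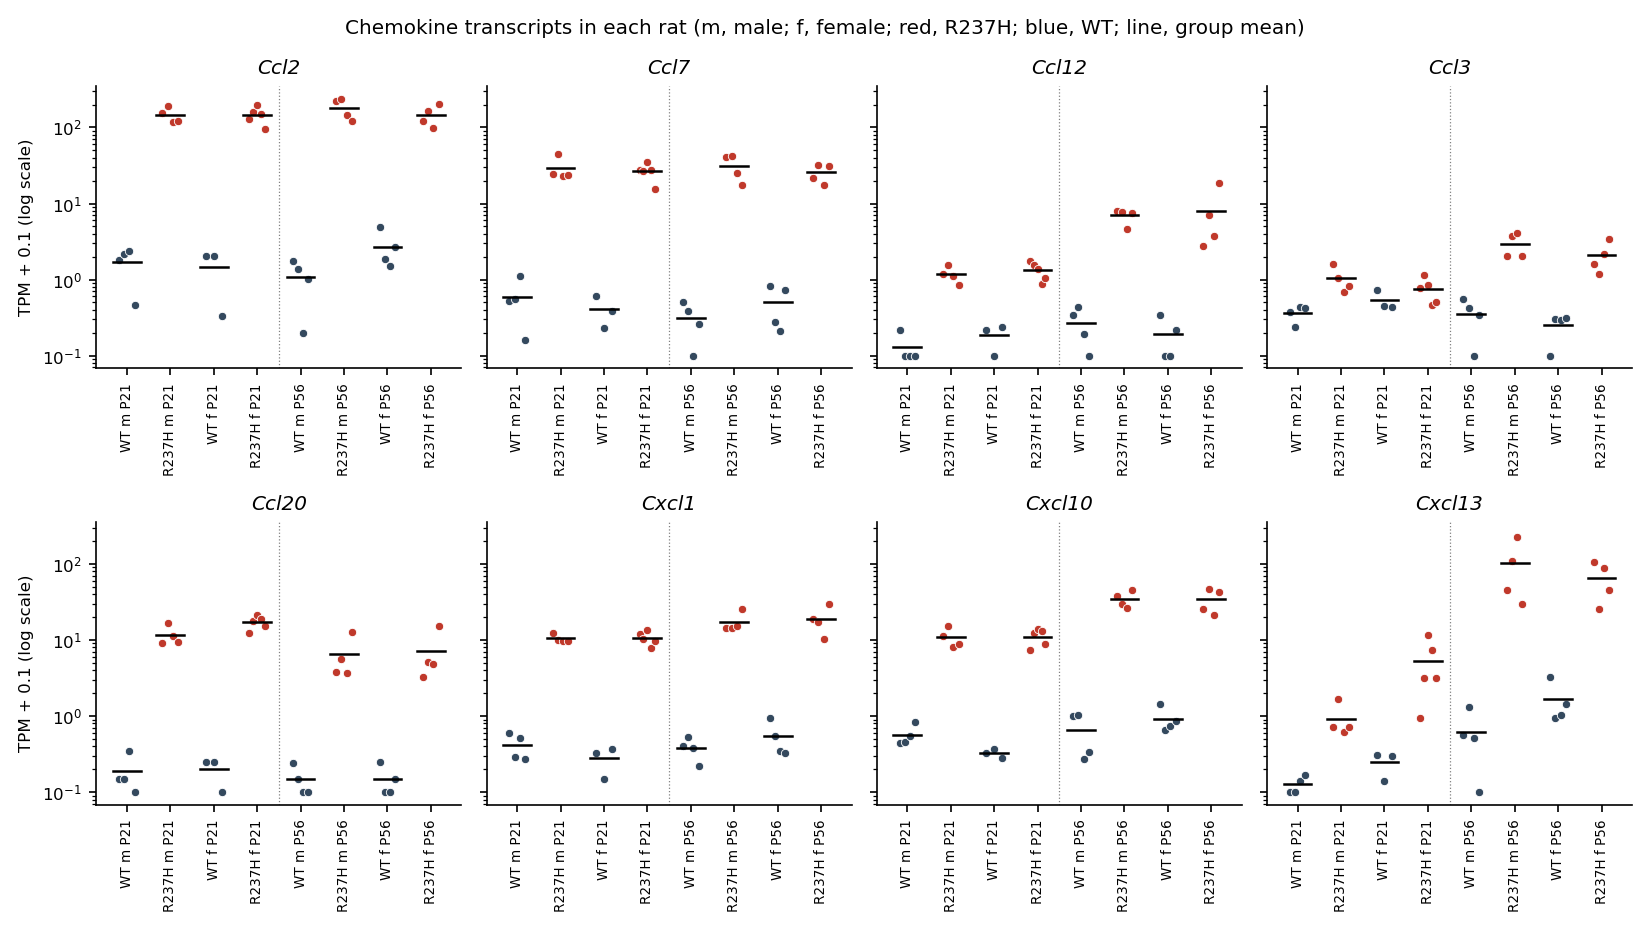
Level of each of the 8 chemokine genes in every rat, as TPM + 0.1 on a log axis, by genotype, sex (m, f) and age, with the group mean as a line. The R237H levels of Ccl2 and Ccl7 overlap between the ages, Cxcl13 rises from 0.52 to 11.6 TPM at P21 to 25.7 to 227 TPM at P56, and Ccl20 is lower at P56 in all but 2 rats.

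Every chemokine that passed the filter on low counts was increased in R237H rats of each sex and age. R237H was compared with WT within each sex and age by edgeR's quasi-likelihood test, at a false discovery rate (FDR) under 0.01 over all genes tested. At P56, 8 of the 8 genes were increased in males, where 16.8% of all genes tested were, and 8 of 8 in females, where 17% were. At P21, 6 of 8 were increased in males (12.4% of all genes tested) and 7 of 8 in females (7.06%), and the others (Ccl3 and Ccl12 in males, Ccl3 in females) had too few reads to pass the filter. For 8 genes in P56 males (24.2% of all genes tested) and 8 in P56 females (22.2%), every R237H rat stood above every WT rat. Of the members that passed the filter, the same held for 6 of 6 in P21 males (17.1%) and 7 of 7 in P21 females (14.6%). A rare gene can pass the filter through its R237H reads alone, so these counts are no support. By TPM, which needs no filter, the groups did not overlap for 8 of 8 genes in P21 males and 7 of 8 in P21 females, the exception being Ccl3. In females at P21 the calls for Ccl12 and Cxcl13 were lost in some fits, as given beside each gene.

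The CCR2 ligand Ccl2 (ENSRNOG00000007159) was the most abundant of the 8 in R237H rats. In males at P21 it was at 155, 193, 116 and 121 TPM in R237H rats and at 1.73, 2.04, 2.31 and 0.36 TPM in WT rats. In males at P56 it was at 224, 238, 145 and 121 TPM against 1.63, 1.28, 0.1 and 0.92 TPM. The lowest R237H rat was thus far above the highest WT rat at both ages, and the R237H levels of the ages overlapped. In females the R237H rats were at 129, 161, 195, 148 and 95.05 TPM at P21 and at 122, 163, 97.2 and 205 TPM at P56. The WT females were at 1.94, 1.92 and 0.23 TPM at P21 and at 4.74, 1.79, 1.42 and 2.55 TPM at P56. The WT female with 4.74 TPM (s64-B) was the highest WT rat of all for Ccl2. At P21 the log2 fold change was 6.53 in males (SE 0.29, FDR = 2.03e-08) and 6.76 in females (SE 0.45, FDR = 7.07e-06), which is 92.4 and 109 times the WT level. For P56 it was 7.2 in males (SE 0.44, FDR = 1.99e-06) and 5.5 in females (SE 0.35, FDR = 1.3e-06), or 147 and 45.4 times. Ranked among all genes tested, these changes stood at places 7 and 10 for P21 and 11 and 28 for P56.

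Ccl7 (ENSRNOG00000000239), a monocyte attractant that lies next to Ccl2 in the RefSeq gene order of rat chromosome 10, followed Ccl2 at a nearly fixed ratio. It was at 22.8 to 44.3 TPM in R237H males and 15.5 to 34.6 TPM in R237H females at P21, and at 17.5 to 41.6 and 17.4 to 31.9 TPM at P56. The WT rats were between 0 and 1.03 TPM. The log2 fold change was 5.88 in males and 6.45 in females at P21 (SE 0.39 and 0.40), and 6.83 and 5.66 at P56 (SE 0.53 and 0.42), with FDR between 3.47e-07 and 8.45e-06. In P21 males it was 6.54 without the WT rat R1781F. Within each of the 17 R237H rats Ccl2 was 4.36 to 6.92 times as high as Ccl7, with a median of 5.40 at P21 and 5.66 at P56. By contrast, the ratio of Ccl20 to Ccl7 ran from 0.0907 to 0.984 over the same rats.

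Ccl12 (ENSRNOG00000029768), also a CCR2 ligand and the next but one after Ccl7 in that gene order, was almost absent in WT rats. The WT males at P21 held 1 read in all and the WT females 2. In R237H rats at P21 it was at 1.08, 1.45, 1 and 0.76 TPM in males and at 1.65, 1.44, 1.28, 0.77 and 0.96 TPM in females. At P56 it was at 7.91, 7.61, 4.59 and 7.5 TPM in males and at 2.68, 7.04, 3.59 and 18.6 TPM in females, so every R237H rat at P56 was above every R237H rat at P21. The ratio of R237H to WT reads, scaled by library size, was 36.4 in males at P21 (95% interval 6.04 to 1483), 15 in females at P21 (3.96 to 127) and 72.4 in females at P56 (24.5 to 353), where the WT females held 3 reads. These exact intervals cover counting error only, and the fitted fold change of so rare a gene depends on the prior count. The fitted log2 fold change was 3.69 in females at P21 (SE 0.68, FDR = 0.00406), 4.89 in males at P56 (SE 0.51, FDR = 5.19e-05) and 5.91 in females at P56 (SE 0.87, FDR = 3.99e-04). The last was 6.85 without the WT rat s64-B and 5.16 without s70-C or without the choroid-rich libraries. In males at P21, where the gene did not pass the filter, it was 4.57 without the filter (FDR = 5.53e-04). Leaving out 1 rat, Ccl12 passed the filter in 5 of the 8 fits in females at P21. Its call there held in the 2 of them that leave out an R237H rat and was lost without any 1 of the 3 WT rats, and also without the libraries rich in choroid plexus markers (FDR = 0.0256).

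Ccl3 (ENSRNOG00000011205), which encodes the macrophage inflammatory protein MIP-1α, was the scarcest of the 8 in R237H rats at P56. It was at 1.94, 3.67, 3.98 and 1.94 TPM in R237H males and at 1.52, 1.07, 2.07 and 3.32 TPM in R237H females at P56. The WT rats of that age were at 0 to 0.46 TPM in males and 0 to 0.21 TPM in females. The log2 fold change was 3.16 in males (SE 0.58, FDR = 0.00175) and 3.35 in females (SE 0.58, FDR = 0.00107). With the number in the sample titles, whose meaning is not stated, as a block, neither passed (FDR = 0.0117 and 0.012). At P21 R237H males were at 0.58 to 1.5 TPM and WT males at 0.14 to 0.34 TPM, and without the filter the log2 fold change was 1.83 (FDR = 0.00868). In females at P21 the groups overlapped, with 0.37 to 1.05 TPM in R237H and 0.33 to 0.64 TPM in WT rats (log2 fold change without the filter 0.65, FDR = 0.532).

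Ccl20 (ENSRNOG00000015992), the ligand of CCR6, had the largest fold change of the 8 by edgeR in both sexes at P21 and in P56 females, against WT groups that held 4 to 7 reads each. With limma on log2(TPM + 0.1) it came after Ccl2 in all 3 (6.07 against 6.63, 6.52 against 7, and 5.42 against 5.84). In R237H rats at P21 it was at 9.06, 16.8, 11.03 and 9.3 TPM in males and at 12.2, 17.6, 21.4, 18.9 and 15.3 TPM in females. At P56 it was at 3.75, 5.58, 3.57 and 12.7 TPM in males and at 3.19, 5.11, 4.78 and 15.2 TPM in females. The values of 12.7 and 15.2 TPM belong to s70-B and s70-C, and the other 6 R237H rats at P56 were below every R237H rat at P21. WT rats were at 0 to 0.25 TPM. The log2 fold change was 6.96 in males and 7.31 in females at P21 (SE 0.43 and 0.45, FDR = 1.9e-07 and 4.85e-06), and in both it ranked 4 among all genes tested. The P56 values were 6.59 and 6.68 (SE 0.76 in each, FDR = 9.73e-05 and 6.83e-05). Single WT rats decided their size, which was 7.86 without s65-B in P56 males, 7.99 without s64-B in P56 females and 8.19 without R1781F in P21 males. Without the 6 libraries rich in choroid plexus markers the P56 values were 6 and 6.06, the latter also without s70-C alone.

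Cxcl1 (ENSRNOG00000002802), the neutrophil attractant, was at 9.63 to 12.3 TPM in R237H males and 7.71 to 13.5 TPM in R237H females at P21. The P56 levels were 14.1, 14.2, 15.4 and 25.2 TPM in males and 18.6, 17.3, 10.3 and 29.9 TPM in females, and the highest rat of each sex was again s70-B or s70-C. WT rats were at 0.05 to 0.85 TPM. The log2 fold change was 5.04 and 5.89 in males and females at P21 (SE 0.26 and 0.40) and 5.49 and 5.11 at P56 (SE 0.35 and 0.45), with FDR between 5.36e-08 and 1.1e-05.

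Cxcl10 (ENSRNOG00000022256), an interferon-induced ligand of CXCR3, was higher at P56 in R237H rats. In R237H rats at P21 it was at 11.4, 15.3, 8.03 and 8.7 TPM in males and at 7.4, 12.1, 13.8, 12.97 and 8.81 TPM in females. At P56 it was at 37.2, 29.9, 26.2 and 45.7 TPM in males and at 25.8, 47.03, 21.1 and 42.9 TPM in females. The ranges of the 2 ages did not overlap in either sex. WT rats were at 0.18 to 0.73 TPM at P21 and 0.17 to 1.34 TPM at P56. The log2 fold change was 4.52 and 5.62 in males and females at P21 (SE 0.27 and 0.35, FDR = 1.77e-07 and 5.16e-06) and 5.62 and 5.06 at P56 (SE 0.39 and 0.33, FDR = 4.42e-06 and 1.57e-06).

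Cxcl13 (ENSRNOG00000024899), the B-cell attractant, moved most with age. In R237H males it was at 0.61, 1.56, 0.52 and 0.62 TPM at P21 and at 44.7, 111, 227 and 30.04 TPM at P56. In R237H females it was at 0.84, 3.11, 11.6, 7.25 and 3.04 TPM at P21 and at 105, 25.7, 87.8 and 46.0 TPM at P56. The rats of each R237H group thus differed widely, yet the lowest at P56 was above the highest at P21. WT males were at 0 to 0.07 TPM at P21 and 0 to 1.2 TPM at P56, and WT females at 0.04 to 0.21 and 0.85 to 3.15 TPM. The fitted log2 fold change at P21 was 4.59 in males (SE 0.68, FDR = 3.31e-04) and 5.12 in females (SE 0.95, FDR = 0.0042). At P56 it was 7.28 in males (SE 0.88, FDR = 1.34e-04) and 5.17 in females (SE 0.59, FDR = 7.58e-05). The WT males at P21 held 3 reads in all, and the scaled ratio of reads there was 28.7 (95% interval 9.43 to 142). In P21 males the fold change was 5.45 without the WT rat R1781G, and the call was lost with all 32 rats in one model. In P56 males it was 7.93 without the WT rat s66-B, 6.53 without s69-B and 8.24 without the choroid-rich libraries. The call in females at P21 held in 4 of the 8 fits that leave out 1 rat, and was lost without any 1 of the WT rats, without the R237H rat R1790C and without the libraries rich in choroid plexus markers (FDR = 0.0302).

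**Figure D2:**
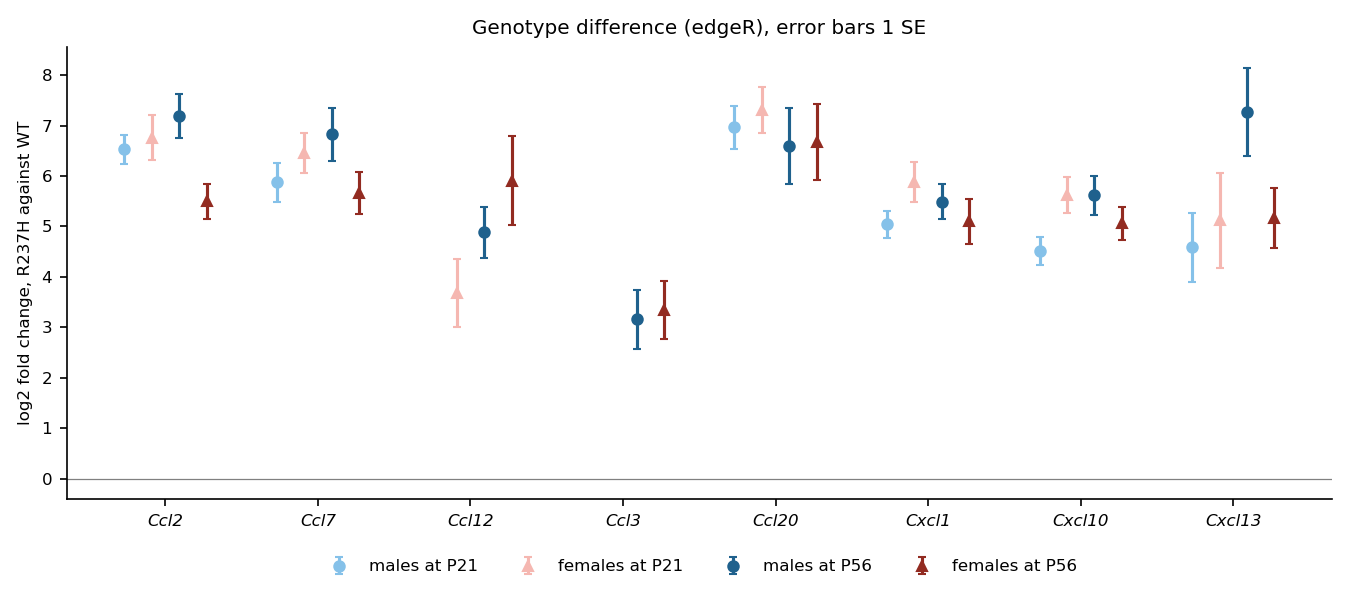
Log2 fold change of R237H against WT (vertical axis, edgeR, with bars of 1 SE) for the 8 genes in the 4 comparisons of sex and age. In these fits Ccl20 leads at P21 (6.96 and 7.31), though with limma on log2(TPM + 0.1) Ccl2 did. Cxcl13 and Ccl2 lead in males at P56 (7.28 and 7.20), and Ccl3 is lowest at P56 (3.16 and 3.35). Genes that did not pass the filter on low counts have no point.

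The order of the fold changes therefore differed from the order of the levels. In males at P56 the fold changes ran from Cxcl13 and Ccl2 through Ccl7, Ccl20, Cxcl10, Cxcl1 and Ccl12 to Ccl3, and in females at P56 from Ccl20 through Ccl12, Ccl7, Ccl2, Cxcl13, Cxcl1 and Cxcl10 to Ccl3. At P21 both sexes had the order Ccl20, Ccl2, Ccl7, Cxcl1 at the top by edgeR, while limma on log2(TPM + 0.1) put Ccl2 before Ccl20. Many neighbours lie within 1 SE of each other, and the differences between genes in fold change were not tested.

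The levels of neighbouring genes were compared within each R237H rat by a two-sided exact sign-flip permutation test on log2(TPM + 0.1), adjusted over 14 tests. Neighbours were set by the mean TPM of the same rats, so the p-values are not those of pairs chosen beforehand. At P21 (9 rats) Ccl2 stood first at 146 ± 34.1 TPM (SD). It was above Ccl7 in 9 of 9 rats by a median of 5.38-fold, and Ccl7 was above Ccl20 in 9 of 9 by 2.06-fold (adjusted p = 0.0182 for each in the exact permutation test). Ccl20 was above Cxcl10 in 8 of 9 rats (exact permutation test, adjusted p = 0.0391), while Cxcl10 was above Cxcl1 in 4 of 9 and the pair did not differ beyond its spread (exact permutation test, adjusted p = 0.848). Cxcl1 was above Cxcl13 in 9 of 9 rats by 6.11-fold (exact permutation test, adjusted p = 0.0182). Cxcl13 and Ccl12 did not differ beyond their spread (exact permutation test, adjusted p = 0.287), and Ccl12 was above Ccl3 in 8 of 9 rats (exact permutation test, adjusted p = 0.0365). The sexes are pooled here, and they placed Cxcl13 differently. In males its mean of 0.828 TPM was the lowest of the 8, below Ccl12 and Ccl3, and in females its mean of 5.16 TPM stood in place 6, with R1790B (11.6 TPM) and R1790C (7.25 TPM) close to their Cxcl1 levels (13.5 and 7.71 TPM).

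At P56 (8 rats) the order of mean TPM was Ccl2 at 164 ± 52.1 (SD), Cxcl13 at 84.6 ± 66.5, Cxcl10 at 34.5 ± 10, Ccl7 at 28.5 ± 9.67, Cxcl1 at 18.1 ± 6.42, Ccl12 at 7.44 ± 4.93, Ccl20 at 6.74 ± 4.57 and Ccl3 at 2.44. Among its first 5 genes no neighbours differed after adjustment. Ccl2 was above Cxcl13 in 7 of 8 rats (exact permutation test, adjusted p = 0.0608), and the rat in which it was not was s69-B. Cxcl1 was above Ccl12 in 8 of 8 rats by 2.63-fold (exact permutation test, adjusted p = 0.0273), Ccl12 and Ccl20 did not differ beyond their spread (exact permutation test, adjusted p = 0.505), and Ccl20 was above Ccl3 in 7 of 8 (exact permutation test, adjusted p = 0.0365). The smallest p that these tests can give before adjustment is 0.00391 with 9 rats and 0.00781 with 8.

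The make-up of the summed chemokine RNA changed between the ages. The 8 genes summed to 149 to 292 TPM in R237H rats at P21, to 244 to 451 TPM at P56, and in WT rats to 1.05 to 11.2 TPM. Ccl2 made up 63.9% to 72% of the sum in the R237H rats at P21 and 32.2% to 59.7% at P56. Cxcl13 made up 0.283% to 3.97% at P21 and 8.62% to 50.3% at P56, where it was larger than Ccl2 in s69-B. Ccl20 went the other way, with 4.20% to 10.3% at P21 and 0.791% to 4.87% at P56. In WT rats the share of Cxcl13 was also higher at P56, at 21.6% ± 11.8 (SD, n = 8) against 3.39% ± 4.38 (n = 7) at P21, and that of Ccl2 was 37.1% ± 13.7 against 44.4% ± 19.8. The shares in a rat sum to 100%, so a rise of one lowers the others.

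**Figure D3:**
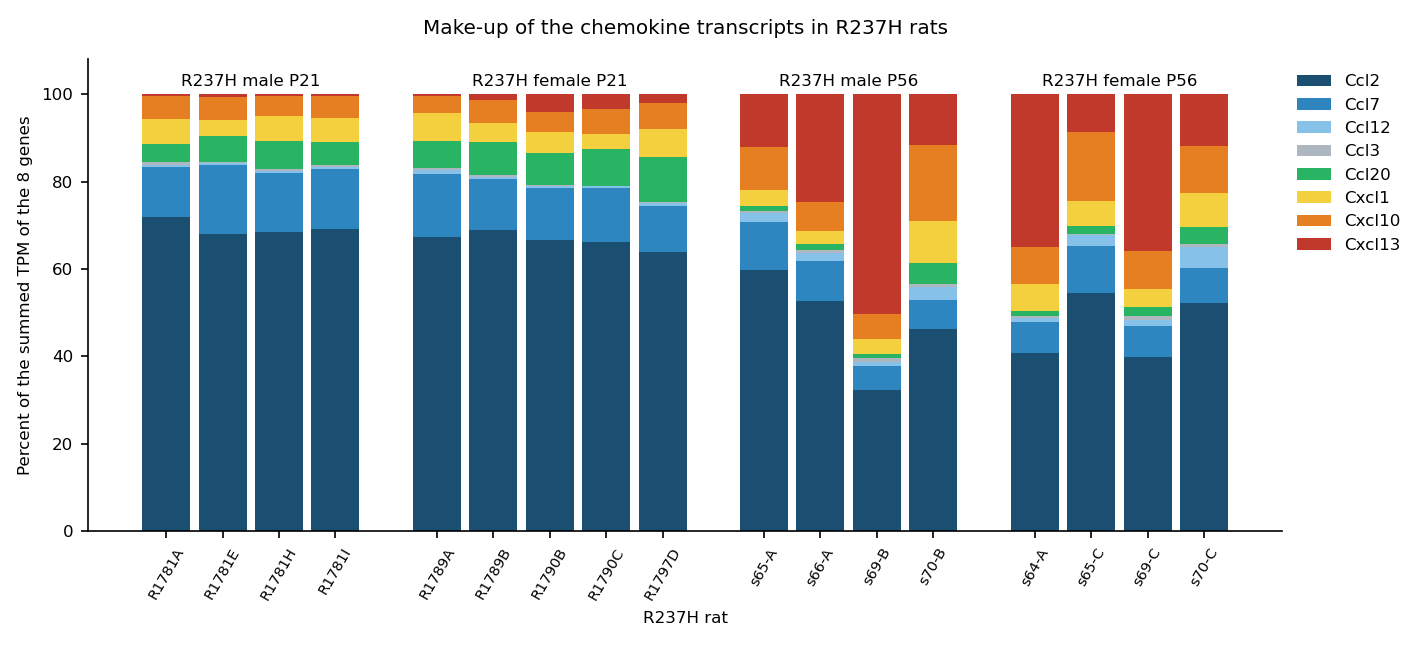
Share of each gene in the summed TPM of the 8 chemokine genes (vertical axis, percent) in each of the 17 R237H rats, in groups by sex and age. At P21 Ccl2 fills 63.9% to 72% of every bar, and at P56 Cxcl13 takes 8.62% to 50.3%.

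The change of level from P21 to P56 was tested within a genotype and sex, in a model of the 16 rats of that sex. In R237H males 3 of the 8 genes changed (22.7% of all genes tested did), and in R237H females 4 of 8 (15.8% did). Cxcl13 rose by 6.70 on the log2 scale in males (SE 0.69, FDR = 2.27e-06) and by 3.56 in females (SE 0.57, FDR = 2.52e-04). Ccl12 rose by 2.41 in males (SE 0.37, FDR = 1.18e-04) and 2.37 in females (SE 0.48, FDR = 0.00174). Cxcl10 rose by 1.45 and 1.40 (SE 0.27 and 0.24, FDR = 6.53e-04 and 4.27e-04). Ccl20 fell in females (log2 difference -1.54, SE 0.37, FDR = 0.00583), while in males its difference of -1.10 (SE 0.41) did not pass (FDR = 0.0486). Ccl2 (0.09 in males and -0.22 in females, SE 0.29 in each) and Ccl7 (-0.09 and -0.27, SE 0.35 and 0.27) were not called, with FDR between 0.502 and 0.868. Cxcl1 (0.48 and 0.63) and Ccl3 (1.36 and 1.34) did not pass either, with FDR of 0.131 and 0.130 for Cxcl1 and of 0.022 and 0.028 for Ccl3.

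Since s70-B and s70-C, the R237H rats highest for Ccl20 and Cxcl1 at P56, also held choroid plexus transcripts, the test was repeated without the 6 libraries rich in these markers, an alternative added after seeing the data. Ccl20 then was lower at P56 in males (log2 difference -1.65, SE 0.37, FDR = 0.00402) and females (-2.07, SE 0.29, FDR = 2.79e-04). Cxcl13 rose by 6.99 and 3.64, and Ccl12 by 2.37 in males, while in females Ccl12 (1.78) no longer passed the threshold (FDR = 0.0119). These fits drop s70-B (males) and s70-C (females), so a larger decrease of Ccl20 follows from the choice of rats and is no support. The WT rats richest in choroid plexus markers, s66-B (6113 TPM) and R1797C (3451 TPM), held 0.05 and 0 TPM of Ccl20. Both s70-B and s70-C also share the number in their titles, and the source of their high Ccl20 was not tested. With all rats, the decrease of Ccl20 in females was called in 10 of the 16 fits that leave out 1 rat, and lost without any 1 of 6 R237H rats (R1789B, R1790B, R1790C, s64-A, s65-C and s69-C), with an FDR of at most 0.0277. In males it passed in 1 of 16 such fits, the one without s70-B (log2 difference -1.65, FDR = 0.0045).

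**Figure D4:**
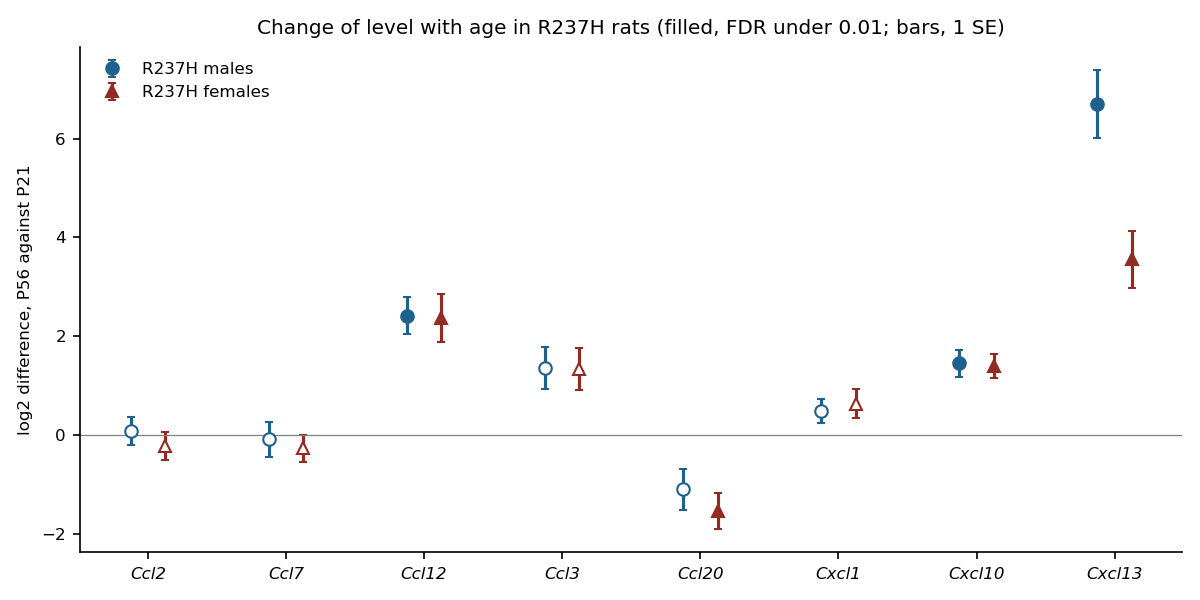
Log2 difference between P56 and P21 in R237H males and females (vertical axis, edgeR, bars of 1 SE), filled where the FDR is under 0.01. Cxcl13 (6.70 and 3.56), Ccl12 and Cxcl10 are above 0 in both sexes, Ccl2 and Ccl7 lie near 0, and Ccl20 is below 0.

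In WT rats 0 of the 8 genes changed with age by edgeR in either sex (8.43% of all genes tested did in males and 2.59% in females), with 2 genes in males and 3 in females at an unadjusted p under 0.05. Cxcl13 was higher at P56 in both, by 4.05 in males (SE 1.58, FDR = 0.0822) and 3.5 in females (SE 1.14, FDR = 0.0752), from levels near 0. Cxcl10 was higher by 1.95 in WT females (SE 0.47, FDR = 0.0178), where limma on log2(TPM + 0.1) called it (FDR = 0.00969).

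Whether the genotype difference itself changed with age was tested by the interaction of age and genotype. By edgeR it was called for 0 of the 8 genes in males (10.1% of all genes tested were called) and 0 in females (2.15%), with 1 and 2 genes at an unadjusted p under 0.05. These were Cxcl10 in males (difference of log2 fold changes 1.08, SE 0.50, FDR = 0.133), and Ccl2 (-1.25, SE 0.58, FDR = 0.211) and Ccl3 (2.70, SE 0.81, FDR = 0.0517) in females. DESeq2 and the likelihood-ratio test called 0 in both sexes, and limma on log2(TPM + 0.1) called Cxcl13 in males (4.66, SE 0.92, FDR = 0.00166) and Ccl3 in females (2.65, SE 0.58, FDR = 0.00619). For Cxcl13 in males edgeR gave 2.66 (FDR = 0.607), where the WT males of P21 held 3 reads of it. The rise of Cxcl13 with age in R237H rats was thus called as a difference of level, and by edgeR not as a difference in its ratio to WT.

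No difference between the sexes in the response passed the test. At P21 the males all carried the same number in the sample titles and the females carried others, so sex cannot be told apart from that number there. The interaction of sex and genotype was called by edgeR for 0 of the 8 genes at P56 and at P21, where 0.00% of all genes tested were called at either age, and by DESeq2, limma and the likelihood-ratio test also for 0. At an unadjusted p under 0.05 there was 1 gene at each age. Ccl2 had a fold change larger in males at P56 (difference of log2 fold changes 1.66, SE 0.58, FDR = 0.999) and Cxcl10 one smaller in males at P21 (-1.10, SE 0.51, FDR = 1).

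Whether a rat high in one chemokine was high in another was asked among the R237H rats of an age, after centring each sex, over 28 pairs of genes at each age. Ccl2 and Ccl7 went together at both ages, with Pearson's r = 0.91 and Spearman's rho = 0.83 at P21 (exact permutation p = 0.00347 and 0.00903, n = 9) and r = 0.96 and rho = 0.83 at P56 (exact permutation p = 0.00521 and 0.0278, n = 8). Adjusted over the 56 pairs, p was 0.0648 and 0.0729 in the exact permutation test, so neither passed 0.05. Without the 2 rats farthest from the median of Ccl2, r was 0.81 and 0.99. Cxcl10 and Cxcl13 went together at P21 (r = 0.84, rho = 0.93, exact permutation p = 6.94e-04 and 0.00278, adjusted p = 0.0389, r = 0.75 without 2 rats), the only pair that passed. At P56 the same genes went in opposite directions (r = -0.87, rho = -0.88, exact permutation p = 0.0104 for each, adjusted p = 0.0972, r = -0.91 without 2 rats). On TMM-scaled counts (CPM) in place of TPM no pair passed. The difference between the ages was not tested.

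For each gene the pattern over the 17 R237H rats was compared with those of 3025 genes that had a symbol and a mean of at least 1 TPM. The points share 2 ages, so a gene that moves with age has many genes like it, and the r values describe these rats only. Ccl2 and Ccl7 were most like each other (r = 0.92), and Lhfpl6 came second for both (0.76 and 0.71). Cxcl13 was most like F10 (0.97) and Il18rap (0.96), Cxcl10 like Slfn4 and Rfx4 (0.98 each), and Ccl12 like Snx18 (0.97) and LOC108348048 (0.96). Ccl20 was most like Hbegf and E2f5 (0.89 each), Cxcl1 like Apod (0.92) and Rap1a (0.89), and Ccl3 like Etv6 (0.94) and C2h1orf162 (0.89).

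Of 28 other chemokine ligands listed, 8 had an identifier with a symbol, and the remainder are not analysed here. Symbols come from tables that favour changed genes, so counts of the lists are not read against all genes. At P56, 5 of the 8 were increased and 3 decreased, in either sex, with a median log2 fold change of 2.89 and 2.8 beside -0.00602 and -0.0343 over all genes tested, a difference that the source of the symbols can make by itself. At P21 3 were increased and 1 decreased in males and 3 and 0 in females (medians 0.43 and 1.28 beside -0.00838 and -0.00686). Those increased at P56 were Ccl4 (3.64 in males and 4.21 in females), which lies beside Ccl3 in the gene order, Ccl6 (3.40 and 3.35), the CXCR3 ligand Cxcl11 beside Cxcl10 (3.84 and 2.71), the membrane-bound CXCR6 ligand Cxcl16 (2.38 and 2.89) and Cxcl17 (3.46 and 4.26). The decreased ones were Cxcl12 (-0.64 and -0.83), a homeostatic ligand of CXCR4, the neuronal fractalkine gene Cx3cl1 (-0.82 and -0.63) and Ccl27 (-0.75 and -0.89). All 3 were abundant in WT rats, with Cx3cl1 at 149 to 287 TPM. For Cxcl16 the genotype difference grew with age in males (1.39, SE 0.25, FDR = 0.00136) and females (1.63, SE 0.26, FDR = 0.00186). In males it became more negative for Cx3cl1 (-0.74, FDR = 0.00467) and Ccl27 (-0.53, FDR = 0.00693).

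Of 22 chemokine receptors 5 had a symbol. At P21 4 of them were increased in males and 2 in females, and at P56 3 and 4, with 0 decreased and median log2 fold changes of 1.12, 1.45, 1.72 and 1.53. Cxcr3, the receptor of CXCL10, was at 0.63 to 1.74 TPM in R237H rats at P56 and at 0 to 0.18 TPM in WT rats (log2 fold change of males 3.97 and of females 4.72, SE 0.68 and 0.53). Cxcr2, the receptor of CXCL1, did not exceed 0.25 TPM in any rat and passed in females at P56 (2.93, SE 0.49, FDR = 8.95e-04). Cx3cr1 and Cxcr4 were increased at P56 (1.75 and 1.53, and 1.72 and 1.35), and Ccr3 was increased in males at P21 (0.91, FDR = 0.00859). The interaction of age and genotype was called for Cxcr4 in males (0.85, FDR = 0.00779) and for neither Ccr3 (-0.69 and -1.08 in males and females, FDR = 0.33 and 0.126) nor Cxcr2 (-3.63 and 0.53, FDR = 0.0187 and 0.772). Ccr1, Ccr2, Ccr6 and Cxcr5, the receptors of other members, had no symbol here and are not analysed.

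Of 19 regulators and inducing cytokines 16 had a symbol. At P56 13 of them were increased in each sex, and at P21 16 in males and 10 in females, with 0 decreased (medians 1.64, 1.85, 1.11 and 1.3). At P56 the NF-κB subunit genes Nfkb2 (2.69 and 2.51) and Relb (2.40 and 2.37), the NF-κB inhibitor gene Nfkbia (1.72 and 1.41), and Stat3 (2.25 and 2.14) rose in males and females, as did the interferon regulators Irf1 (1.56 and 1.34) and Irf7 (1.5 and 1.91). The cytokine genes Il6 (5.66 and 4.44) and Il1b (4.92 and 4.31) rose most. In males, Il6, Il1b and Stat3 were the regulators for which the genotype difference grew with age (3.67, 2.94 and 0.93, FDR = 0.00136, 0.003 and 3.66e-04). In females 0 of 16 regulators passed this test by edgeR (Il6 2.56, Il1b 1.19 and Stat3 0.73, FDR = 0.0399, 0.368 and 0.0291). Tnf rose in males at P21 (2.83, FDR = 2.26e-05), and at P56 its value of 1.14 did not pass (FDR = 0.0735), while the difference of the 2 (-1.69) did not pass either (FDR = 0.0448). In females Tnf likewise rose at P21 (2.65, FDR = 0.0093) and did not pass at P56 (1.82, FDR = 0.0403), nor did the difference (-0.82, FDR = 0.663). In females at P21 the list counts depended on single WT rats, with 6 regulators increased without R1790A and 1 ligand increased without any 1 of the 3.

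**Figure D5:**
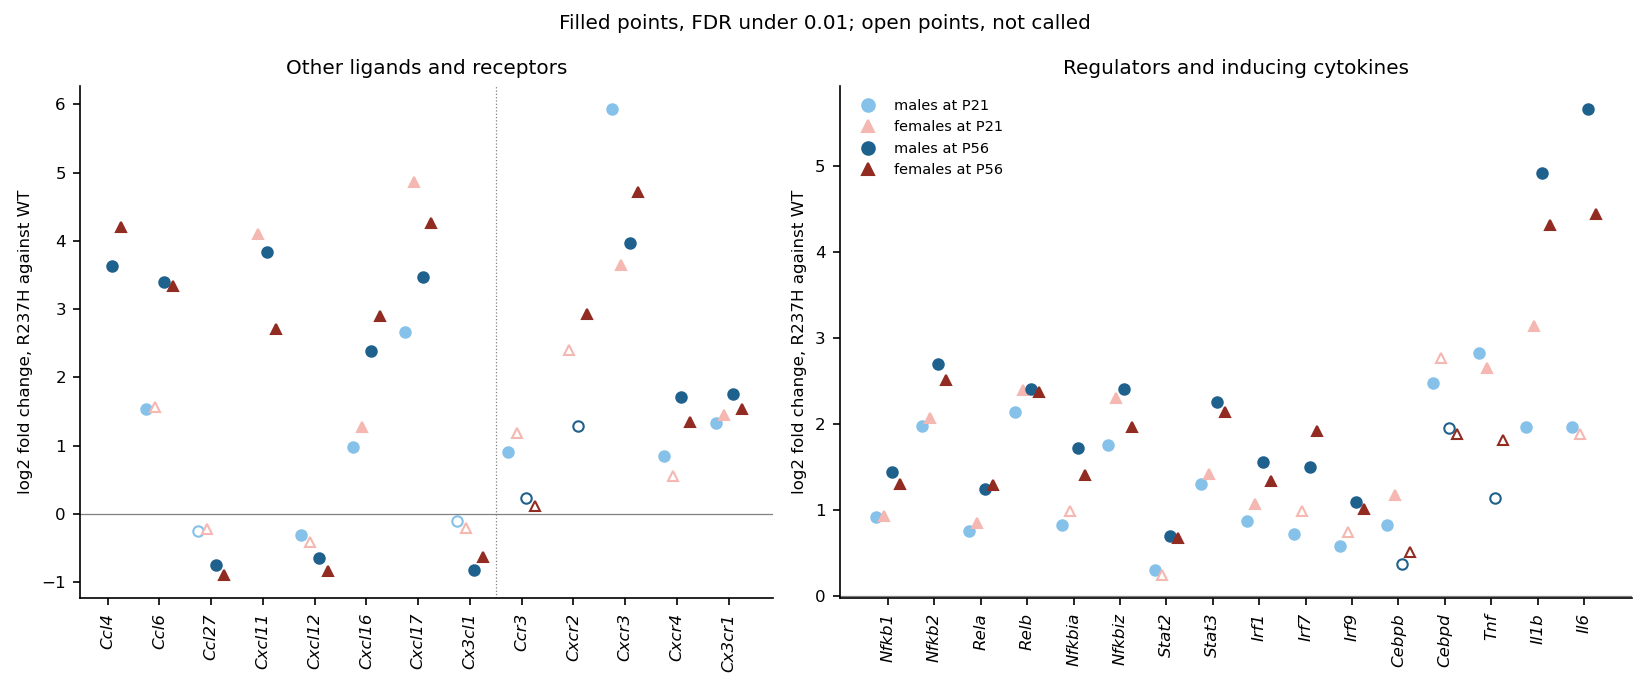
Log2 fold change of R237H against WT (vertical axis, edgeR) for other chemokine ligands and receptors on the left, parted by a dotted line, and for regulators and inducing cytokines on the right, filled where the FDR is under 0.01. Il6 (5.66) and Il1b (4.92) are the largest of the regulators in males at P56, and Cxcl12, Cx3cl1 and Ccl27 lie below 0.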

How the data were processed

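PolyA-selected, stranded RNA sequencing was performed by the authors on hippocampal RNA. Per the submitters' notes and the study's methods, bcl2fastq 2.20.0.422, Skewer (trimming), STAR (alignment) and RSEM (quantification) were used (other versions and the genome build are not given in the sources used here). The authors deposited RSEM's unnormalized expected counts and its TPM values. All columns matched a sample, and 0 were left unused. Gene symbols were taken from the study's lists of changed genes and cover 3283 of 23822 identifiers.

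After rounding, edgeR 4.0.16 under R 4.3.3 tested the expected counts (quasi-likelihood F-test, default filter on low counts, TMM), with R237H against WT within sex and age. Interactions and age contrasts were fitted on 16 rats. FDR values are Benjamini-Hochberg values over all genes tested, and the threshold was 0.01. Each SE is the absolute estimate over the root of F, and SEs are unreliable for estimates near 0. Alternatives used limma 3.58.1, DESeq2 1.42.0 and other settings. The code was tested on simulated data. Exact tests came from Python 3.11.15 with numpy 2.4.6 and scipy 1.17.1, tables from pandas 2.3.3, figures from matplotlib 3.10.9. RefSeq sequences are of build GRCr8, whose gene table was used only for names and gene order.

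The members, lists and tests were chosen with earlier results of these data known. The genes named are the 8 chemokines, listed genes called in at least 1 comparison, receptors of the members, the 2 genes most like each member, and Gfap. Rats were separate animals. A listed receptor gene is not reported here.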

Additional observations from a re-analysis of the deposited data

Results flagged for a closer look

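In groups of 4 or 5 rats, 1 rat stood apart from the others by Dixon's criterion in 8 of 56 gene and group combinations, where chance gives about 5% for normally distributed values. That rate does not hold for groups with few reads, such as the WT cases below, so no excess is read from these counts. Among R237H males at P21, R1781E was high for Ccl7 (44.3 TPM) and Cxcl13 (1.56 TPM), and R1781A was high for Cxcl1 (12.3 TPM). Among R237H males at P56, s70-B was high for Cxcl1 (25.2 TPM) and s69-B was low for Ccl12 (4.59 TPM). Among R237H females at P56, s70-C was high for Ccl20 (15.2 TPM). Of the WT rats, a female at P56 (s64-B) had 0 TPM of Ccl3, and a male at P21 (R1781C) was the only 1 of its group with a read of Ccl12 (0.12 TPM). No interaction of age or sex with genotype passed the threshold for the 8 genes by edgeR.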

How the results depend on the processing

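The number of the 8 genes increased in R237H rats stayed within 1.5 times its value under every alternative run, including DESeq2, RLE factors, all 32 rats in one model and each rat left out. It was 7 to 8 at P56, and at P21 6 to 8 for males and 5 to 7 for females, and none of these fold changes turned its direction. Besides the calls named in the report, Cxcl13 lost its call in P21 females with limma on log2(TPM + 1). With limma on log2(TPM + 0.1), 1 gene each was called for age by genotype in males and in females and for age in WT females, where edgeR called 0. In males alone, 5 of the 8 genes kept their place in the order of levels at P21. On CPM, 0 pairs of genes covaried at an adjusted p under 0.05 against 1 on TPM. The small age differences in R237H males turned sign for Ccl2 (0.09 with all rats, -0.089 to 0.23 with each rat left out) and for Ccl7 (-0.09 with all rats, -0.28 to 0.16 with each left out, 0.093 with limma, and 0.0886 without the choroid-rich libraries). In P21 females the replicate block below gave 4 regulators, 0 other ligands and 1 receptor (10, 3 and 2 without it), 5 regulators were called without the choroid-rich libraries, and 5 receptors were called by DESeq2, by the likelihood-ratio test and at an FDR under 0.05, and 4 with all 32 rats (2 by the quasi-likelihood test). The causes were not tested.

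Sample titles carry a number shared by some rats of both genotypes, with no stated meaning. Deviations of same-numbered rats correlated at -0.017 to 0.222 in P56 males, 0.066 and 0.465 in P56 females and 0.024 to 0.393 in P21 females. Those of differently numbered rats correlated at -0.249 to 0.311, -0.313 to 0.273 and -0.274 to 0.201. In both female groups the highest value was that of a same-numbered pair. These values do not settle whether the number pairs the rats, and the number served only as an alternative block. As a replicate block it left 7, 7 and 5 of the 8 genes increased in these groups, with the call lost for Ccl3 at P56 (FDR = 0.0117 and 0.012) and for Ccl12 and Cxcl13 in females at P21 (FDR = 0.0714 and 0.0157). P21 males all carry one number. Low counts limit Ccl12, Ccl3 and the WT levels of Ccl20 and Cxcl13, and group sizes limit the interactions. Leaving out rats in the interactions and age contrasts was added after seeing the data.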
